A study of Schmidtea mediterranea with 48 samples.

Results

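*nr4A* (contig dd_Smed_v4_12229) and *qki* (contig dd_Smed_v4_11601) were followed through every head and tail library of an RNAi time course in the planarian *Schmidtea mediterranea*. *qki* is named after its best BLAST match, quaking. The 2 genes were chosen by name and contig number out of 26401 contig numbers counted in each tissue, and rows that carry the same contig number were summed. *qki* had been picked by the authors from these same libraries as a gene lowered in both tissues, so its direction here is not independent evidence.

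The animals were of the asexual strain CIW4 and were fed double-stranded RNA (dsRNA) in liver, 2 times a week. The *nr4A(RNAi)* groups received dsRNA against *nr4A* and the control groups dsRNA against *unc-22*, a *C. elegans* gene. Heads, cut behind the eyes, and tail tips were collected after 2, 3, 4 and 5 weeks from animals starved for 7 days. Each of the 16 groups had 3 libraries, 48 in all, and each library came from 6 pooled animals, so the spread between libraries is a spread between pools. Bulk RNA was measured, and fewer cells of a type cannot be told apart from less RNA per cell. Feeding dsRNA lowers a transcript throughout the animal, in every cell type that expresses it. Total counts per library on contigs ranged from 13800452 to 27490960 in heads and from 13395084 to 42917781 in tails. The tissue labels held up in the control libraries: *sfrp-1*, an anterior gene, had a median of 98.4 CPM (counts relative to the size of the library) in heads and 2.07 in tails, and *wnt11-2*, a posterior gene, had 0.0465 in heads and 40.4 in tails. The library labels of heads and of tails begin with different codes, whose meaning is not stated, so a tissue difference cannot be told apart from a difference between whatever these codes mark. Of the libraries, 4 *nr4A(RNAi)* heads (week 2 replicate 2, week 4 replicate 2, week 5 replicates 1 and 3), 1 *nr4A(RNAi)* tail (week 2 replicate 1) and 1 control tail (week 3 replicate 1) stood apart in earlier results of these data. Their median absolute difference from the other libraries of their group was 0.22 to 0.39 on the log2 scale, against 0.06 to 0.14 for the other heads and 0.06 to 0.24 for the other tails. In tails these ranges overlap. The *nr4A(RNAi)* tail of week 2 replicate 3 (0.24) lay farther out than the named control tail (0.22) but was not named and was kept. Results that rest on them are given with and without them.

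NR4A proteins are orphan nuclear receptors, transcription factors that bind DNA and act without a known natural ligand, and in vertebrates many are immediate early genes. Quaking proteins belong to the STAR family of RNA-binding proteins, which bind RNA through a KH domain. In mammals they act on splicing, stability and translation of mRNA, and in *Drosophila* a relative, *held out wings*, acts in muscle and tendon cells. In planarians, muscle fibers express many of the secreted signals and receptors that give cells their position along the body axes, and also the collagens of the extracellular matrix.

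The contig sequences themselves were not used here. The primers that the study designed for both genes are shown because they fix which transcripts were cloned, and because the second *nr4A* pair was placed, per the methods of the study, outside the stretch covered by the dsRNA. All are written 5′ to 3′.
nr4A cloning, forward: cgcgagtcagtcagccat
nr4A cloning, reverse: tgccgtggctggatgaag
nr4A qPCR, forward: gatggtcaattttaaatcaatcaacaa
nr4A qPCR, reverse: ggtccacagcaatgagttttaagc
qki cloning, forward: caatctttcacaaatcgtgtcca
qki cloning, reverse: caacgcagagttcaaacaatgc
Where these primers or the dsRNA lie on the counted contig was not analysed here, so a count of *nr4A* may include reads from inside and outside the targeted stretch.

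The first question was how far *nr4A*, the targeted gene, was lowered. It was lower in the *nr4A(RNAi)* libraries than in every control library of the same week, in both tissues and at all 4 weeks, but it was never lost. In heads at week 2, *nr4A* stood at 27.2, 27.0 and 24.6 CPM in the control libraries and at 19.1, 17.2 and 18.9 CPM in the *nr4A(RNAi)* libraries. At week 3, *nr4A* stood at 26.5, 28.4 and 28.1 CPM in the control libraries and at 19.4, 19.1 and 20.2 CPM in the *nr4A(RNAi)* libraries. At week 4, *nr4A* stood at 26.4, 27.7 and 29.3 CPM in the control libraries and at 18.8, 15 and 18.1 CPM in the *nr4A(RNAi)* libraries. The knocked-down heads were thus at most at 20.2 CPM while no control head was below 24.6 CPM. At week 5, *nr4A* stood at 26.1, 26.5 and 26.8 CPM in the control libraries and at 12.4, 12.8 and 16.6 CPM in the *nr4A(RNAi)* libraries. Replicates 1 and 2 were the lowest *nr4A(RNAi)* heads of the whole course, and replicate 3 lay above them.

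In tails the same separation held at a slightly lower level of *nr4A*. At week 2, *nr4A* stood at 24.3, 20.2 and 22.01 CPM in the control libraries and at 11.6, 12.7 and 17.2 CPM in the *nr4A(RNAi)* libraries. At week 3, *nr4A* stood at 19.9, 21.5 and 18.2 CPM in the control libraries and at 13.5, 13.2 and 15.3 CPM in the *nr4A(RNAi)* libraries. Within a week, the lowest control tail and the highest *nr4A(RNAi)* tail stood at 20.2 and 17.2 CPM at week 2 and at 18.2 and 15.3 CPM at week 3. Across these weeks the groups came closer, since the highest *nr4A(RNAi)* tail of week 2 reached 17.2 CPM and the lowest control tail of week 3 had 18.2 CPM. At week 4, *nr4A* stood at 19.97, 21.7 and 25.2 CPM in the control libraries and at 12.5, 17.8 and 17.7 CPM in the *nr4A(RNAi)* libraries. At week 5, *nr4A* stood at 19.6, 24.5 and 19.7 CPM in the control libraries and at 12.4, 14.2 and 15.01 CPM in the *nr4A(RNAi)* libraries. Among the 12 tails of each group the control range was 18.2 to 25.2 CPM and the *nr4A(RNAi)* range 11.6 to 17.8 CPM. Of all contigs tested, 0.77% in the head and 0.408% in the tail had every *nr4A(RNAi)* library below every control library of the same week at all weeks.

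*qki* fell further than the targeted gene. In heads at week 2, *qki* stood at 13.8, 14.1 and 13.9 CPM in the control libraries and at 6.48, 6.64 and 5.91 CPM in the *nr4A(RNAi)* libraries. At week 3, *qki* stood at 14.8, 12.8 and 12.5 CPM in the control libraries and at 3.62, 4.25 and 3.88 CPM in the *nr4A(RNAi)* libraries. At week 4, *qki* stood at 12.6, 14.3 and 13.7 CPM in the control libraries and at 2.72, 3.32 and 2.48 CPM in the *nr4A(RNAi)* libraries. Each of these 3 weeks shows a wide gap with no overlap. At week 5, *qki* stood at 9.94, 11.1 and 13.7 CPM in the control libraries and at 3.45, 3.09 and 1.99 CPM in the *nr4A(RNAi)* libraries. The lowest control head, at 9.94 CPM, was still above the highest *nr4A(RNAi)* head of any week, at 6.64 CPM.

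In tails *qki* started from the same range and dropped lower. At week 2, *qki* stood at 15.1, 11.6 and 13.5 CPM in the control libraries and at 5.91, 4.80 and 4.36 CPM in the *nr4A(RNAi)* libraries. At week 3, *qki* stood at 15.1, 14.9 and 13.5 CPM in the control libraries and at 2.13, 2.70 and 2.53 CPM in the *nr4A(RNAi)* libraries. At week 4, *qki* stood at 12.03, 13.1 and 13.6 CPM in the control libraries and at 1.80, 1.71 and 2.26 CPM in the *nr4A(RNAi)* libraries. The knocked-down tails of week 2 thus remained above those of the later weeks, with no overlap. At week 5, *qki* stood at 11.9, 11.9 and 12.01 CPM in the control libraries and at 1.45, 1.16 and 1.53 CPM in the *nr4A(RNAi)* libraries. At this point the counts were low: the *nr4A(RNAi)* tail with the fewest *qki* counts had 21, for which the exact 95% Poisson interval is 13 to 32.1 counts. In the same tissue the lowest *nr4A* count was 206, with an interval of 179 to 236. These intervals cover counting error only.

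**Figure D1:**
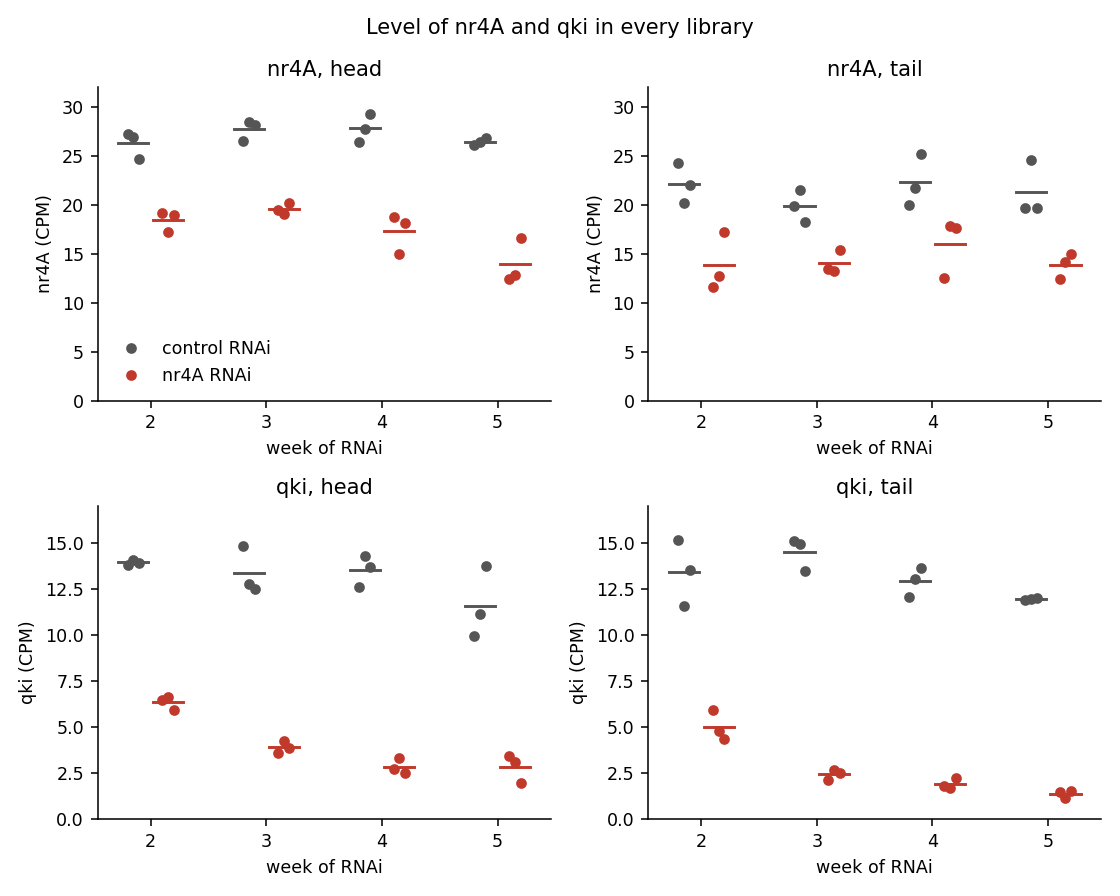
CPM of *nr4A* (top) and *qki* (bottom) in heads (left) and tails (right) by week of RNAi; each point is a library, gray for control RNAi and red for *nr4A* RNAi, and each bar is the mean of 3 libraries. In every panel and week the red points lie below the gray points, and *qki* in tails ends at 1.16 to 1.53 CPM against 11.9 to 12.01 CPM in controls.

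Ordered by mean level, the 8 groups of a tissue fell into the 4 control groups above the 4 *nr4A(RNAi)* groups for both genes. For *nr4A*, the libraries of each group overlapped those of the next group in the order, except at the step from the lowest control group to the highest *nr4A(RNAi)* group. The control groups of *nr4A* ran from 26.3 ± 1.41 CPM (SD, n = 3) at week 2 to 27.8 ± 1.47 at week 4 in heads, and from 19.9 ± 1.66 at week 3 to 22.3 ± 2.64 at week 4 in tails. For *qki*, the *nr4A(RNAi)* groups were themselves stepped. In heads they stood at 6.35 ± 0.38 CPM at week 2, 3.92 ± 0.32 at week 3, 2.84 ± 0.43 at week 4 and 2.84 ± 0.76 at week 5, and only the groups of weeks 4 and 5 overlapped. In tails they stood at 5.02 ± 0.80, 2.45 ± 0.29, 1.93 ± 0.30 and 1.38 ± 0.20 CPM at weeks 2 to 5, and only weeks 3 and 4 overlapped.

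The weekly test asked which differences passed once all contigs were tested together, with edgeR's quasi-likelihood F test on 3 against 3 libraries and Benjamini-Hochberg adjustment. In heads, *qki* passed at week 3 (log2 fold change -1.76, SE 0.12, adjusted p = 2.36e-08) and week 4 (log2 fold change -2.25, SE 0.15, adjusted p = 0.00804), and *nr4A* at week 3 (log2 fold change -0.49, SE 0.07, adjusted p = 0.000163). At week 2 *qki* had a log2 fold change -1.14, SE 0.10, adjusted p = 0.0889, and *nr4A* a log2 fold change -0.52, SE 0.09, adjusted p = 0.621. At week 5 the values were log2 fold change -2.01, SE 0.24, adjusted p = 0.0985 for *qki* and log2 fold change -0.90, SE 0.14, adjusted p = 0.134 for *nr4A*. The *nr4A* head value of week 4 had a log2 fold change -0.68, SE 0.11, adjusted p = 0.15. Of all contigs tested in heads, the percentage called in either direction was 0 at week 2, 5.25 at week 3, 0.049 at week 4 and 0.0111 at week 5. At week 2, 526 contigs had an unadjusted p under 0.05 in edgeR, and the DESeq2 Wald test called 21 after adjustment.

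Single libraries decided several of these weekly calls in heads. At week 2 both genes passed when *nr4A(RNAi)* replicate 2 was left out (adjusted p = 0.000129 for *qki* and 0.0184 for *nr4A*). At week 4 *nr4A* passed without *nr4A(RNAi)* replicate 2 (adjusted p = 0.000492), and at week 5 both passed without *nr4A(RNAi)* replicate 3 (adjusted p = 1.91e-05 for *qki* and 6.59e-06 for *nr4A*). Without *nr4A(RNAi)* replicate 2 the week 2 fit called 64 contigs, against 0 in the main fit. Without *nr4A(RNAi)* replicate 3 the week 5 fit called 11191 contigs, against 2 of 18014 in the main fit. Passing there is thus not particular to these genes. The week 4 call of *qki* was lost when control replicate 1, 2 or 3 or *nr4A(RNAi)* replicate 1 was left out, with adjusted p between 0.0674 and 0.143, while the log2 fold change stayed between -2.37 and -2.17.

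In tails, *qki* passed at week 3 (log2 fold change -2.55, SE 0.14, adjusted p = 0.000447), week 4 (log2 fold change -2.74, SE 0.16, adjusted p = 1.62e-05) and week 5 (log2 fold change -3.13, SE 0.14, adjusted p = 3.08e-08). *nr4A* passed at week 5 (log2 fold change -0.63, SE 0.11, adjusted p = 0.00279). Its other tail values were log2 fold change -0.69, SE 0.18, adjusted p = 0.979 at week 2, log2 fold change -0.49, SE 0.11, adjusted p = 0.312 at week 3 and log2 fold change -0.48, SE 0.14, adjusted p = 0.391 at week 4. At week 2 *qki* had a log2 fold change -1.43, SE 0.17, adjusted p = 0.979, and it passed when *nr4A(RNAi)* replicate 1 was left out (adjusted p = 3.1e-05). Without control replicate 1, *nr4A* passed at week 3 (adjusted p = 0.0134). The percentage of contigs called in tails was 0 at week 2, 0.144 at week 3, 0.407 at week 4 and 9.89 at week 5. At week 2, 239 contigs had an unadjusted p under 0.05 in edgeR, and the DESeq2 Wald test called 6 after adjustment. By these values *qki* in tails stood at 37.1% of control at week 2 and at 11.5% at week 5, whereas *nr4A* stood at 62.2% and 64.8%.

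**Figure D2:**
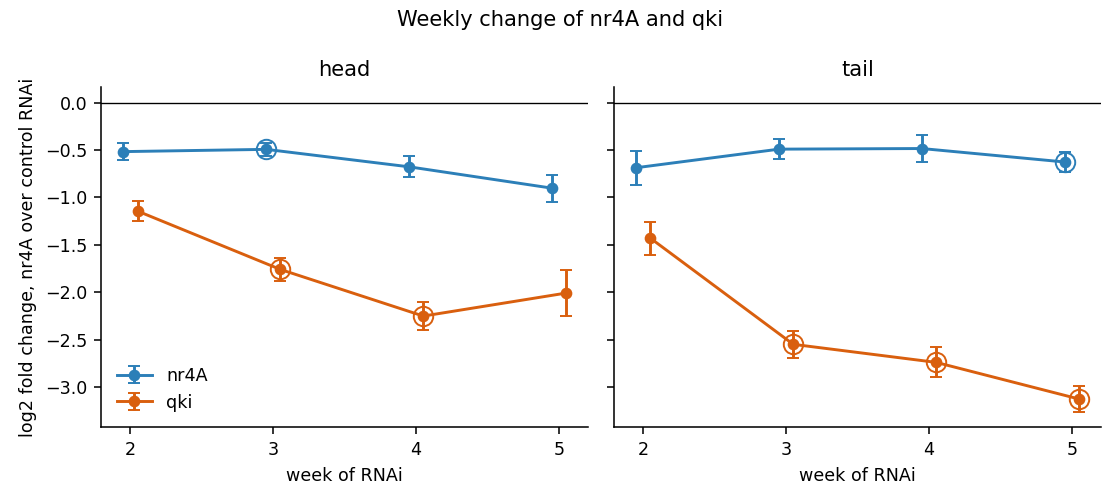
Weekly log2 fold change of *nr4A* (blue) and *qki* (orange), *nr4A* RNAi over control RNAi, in heads (left) and tails (right); bars are 1 SE and ringed points passed an adjusted p of 0.05. *qki* lies below *nr4A* in all weeks of both tissues, and in tails it goes from -1.43 to -3.13 while *nr4A* stays between -0.69 and -0.48.

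Averaged over the 4 weeks, with the 24 libraries per tissue fitted together, both genes fell in both tissues. *nr4A* changed by -0.65 (SE 0.05, adjusted p = 2.81e-08) in heads and by -0.57 (SE 0.08, adjusted p = 6.04e-05) in tails on the log2 scale. *qki* changed by -1.79 (SE 0.08, adjusted p = 1.45e-11) in heads and by -2.46 (SE 0.07, adjusted p = 4.22e-15) in tails. These tests called 5.22% of contigs lower and 7.83% higher in heads, and 1.87% lower and 1.21% higher in tails. In order of log2 fold change from the most negative, *qki* was number 12 of 19606 contigs in heads and number 6 of 19601 in tails, and *nr4A* number 319 and number 183. Without the libraries that stand apart, all 4 values kept their side of the threshold, and the count of all contigs called rose from 2560 to 7059 in heads and from 604 to 1570 in tails.

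The 2 tissues were then compared. The mean change of *qki* was 0.66 less negative in heads than in tails on the log2 scale (SE 0.11, adjusted p = 0.000338, edgeR over 48 libraries), a comparison in which 1.25% of contigs were called. It passed under each of the 12 alternatives run, with values from 0.54 to 0.78. For *nr4A* the head minus tail difference was -0.09 (SE 0.09, adjusted p = 0.716). Its interval of -0.25 to 0.08 includes 0, and a difference inside that interval is not excluded. The label codes and the tissue coincide in this comparison.

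Whether the differences grew during RNAi was tested by subtracting the week 2 difference from the week 5 difference. In tails *qki* grew by -1.70 (SE 0.21, adjusted p = 0.00116), one of 11 contigs called (0.0561%). *nr4A* in tails had 0.05 (SE 0.21, adjusted p = 0.939, interval -0.36 to 0.47). In heads *qki* had -0.89 (SE 0.22, adjusted p = 0.109) and *nr4A* -0.41 (SE 0.13, adjusted p = 0.255), where 0.27% of contigs were called. Without the libraries that stand apart, the head values were -0.72 for *qki* (adjusted p = 0.018) and -0.57 for *nr4A* (adjusted p = 0.000478). In that fit the week 5 *nr4A(RNAi)* heads have 1 library, assumed to vary like the other groups, and 8444 contigs passed instead of 53. Leaving out *nr4A(RNAi)* replicate 3 alone also brought both head values past the threshold (adjusted p = 0.0385 and 0.0315).

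The change between weeks 2 and 5 was also taken within each RNAi group; for the *nr4A(RNAi)* libraries this contrast was added after the data were seen. Between weeks 2 and 5, *qki* in these libraries changed by -1.86 (SE 0.16, adjusted p = 4.13e-06) in tails and by -1.16 (SE 0.16, adjusted p = 0.0017) in heads, where 0.5% and 0.576% of contigs were called. In control libraries over the same weeks, *qki* had -0.16 (SE 0.13, adjusted p = 0.918) in tails and -0.27 (SE 0.15, adjusted p = 0.512) in heads. *nr4A* in *nr4A(RNAi)* libraries had -0.40 (SE 0.10, adjusted p = 0.0609) in heads, past the threshold in 3 of 11 alternatives, and -0.0073 (SE 0.15, adjusted p = 0.986) in tails. *nr4A* in control libraries had -0.06 (SE 0.15, adjusted p = 1) in tails and 0.01 (SE 0.09, adjusted p = 0.991) in heads. Those control contrasts called 0.582% and 1.63% of contigs.

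The level of *qki* was next set against that of *nr4A* in each library. A ratio of 2 counts in a library does not depend on its depth or on the normalization, although contig lengths are not given, so only changes of the ratio are read. There were 38.0 to 56.5 *qki* counts per 100 *nr4A* counts in control heads (median 49.3) and 12 to 38.6 in *nr4A(RNAi)* heads (median 22.2), so 1 *nr4A(RNAi)* head reached the control range. Tails had 48.6 to 76.0 in controls (median 60.9) and 8.16 to 51.0 in *nr4A(RNAi)* (median 15.1), which overlap as well. The high values among *nr4A(RNAi)* libraries came from week 2, with medians of 33.9 in heads and 37.7 in tails, and the tails of week 5 had a median of 10.2. Averaged over weeks, the log2 ratio changed by -1.14 (SE 0.12) in heads and by -1.88 (SE 0.10) in tails, and it was lower at all 4 weeks in both. In the exact two-sided permutation test over the 160000 relabellings within weeks, p was 1.25e-05 in both tissues, the smallest it can give (adjusted p = 1.5e-05 over 6 ratios).

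As a further reference added after the data were seen, each gene was divided by the summed counts of 10 contigs for contractile proteins of muscle in the same library. Relative to these, *nr4A* changed by -0.32 (SE 0.05, exact p = 2.5e-05) in heads and -0.47 (SE 0.07, exact p = 1.25e-05) in tails on the log2 scale. *qki* changed by -1.46 (SE 0.08, exact p = 1.25e-05) in heads and -2.34 (SE 0.08, exact p = 1.25e-05) in tails. All 4 differences were smaller than on the CPM scale, and both genes were lower at all 4 weeks on either scale. The contractile protein counts of the heads were themselves lower, as given further on.

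**Figure D3:**
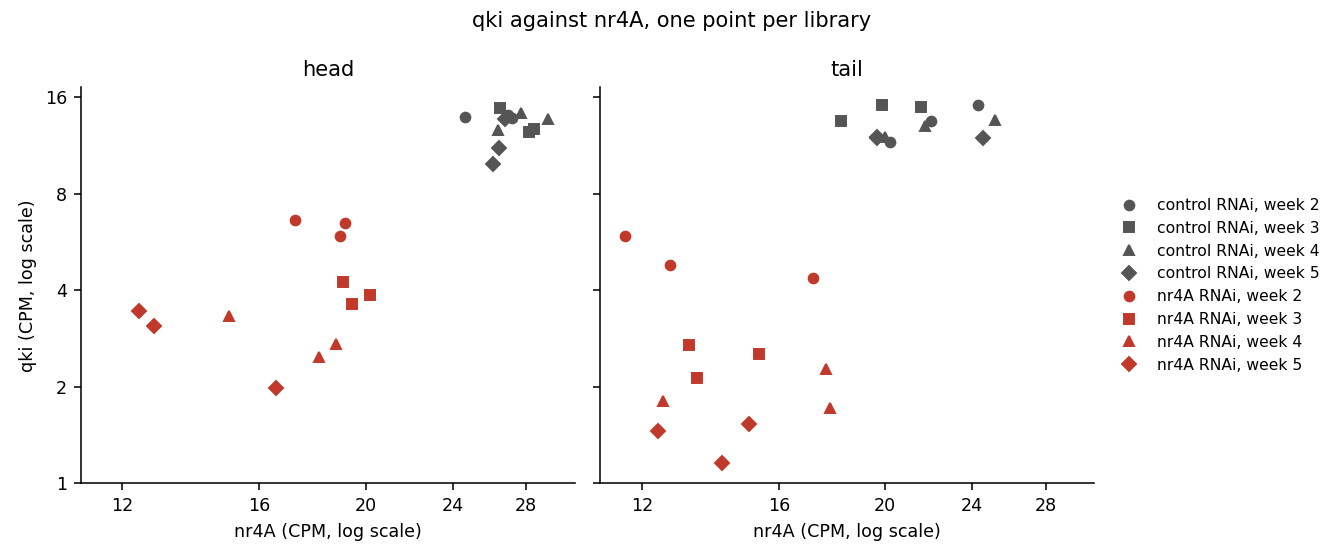
CPM of *qki* against CPM of *nr4A*, both on log2 axes, 1 point per library, in heads (left) and tails (right); color gives the RNAi group and the symbol the week. The 2 RNAi groups form separate clouds, and inside the *nr4A(RNAi)* cloud *qki* was highest at week 2. In heads it lay at 5.91 to 6.64 CPM at week 2 and at 1.99 to 3.45 CPM at week 5, with weeks 4 and 5 overlapping. In tails it lay at 4.36 to 5.91 CPM at week 2 and at 1.16 to 1.53 CPM at week 5, with weeks 3 and 4 overlapping.

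Because RNAi splits the level of *nr4A*, a correlation over all libraries would restate the group difference, and it was computed within the 12 libraries of a tissue and RNAi group. The points share weeks and normalization factors. Pearson's r of log2 CPM was 0.14 in control heads, 0.28 in *nr4A(RNAi)* heads, 0.24 in control tails and -0.18 in *nr4A(RNAi)* tails. Spearman's rho was 0.11, 0.44, 0.29 and -0.16 in the same order. The permutation p-values of r were 0.655, 0.373, 0.443 and 0.563 (adjusted p = 0.655 for each over the 4 groups), and those of rho 0.731, 0.152, 0.353 and 0.619 (adjusted p of at least 0.607). Without the 2 libraries farthest from the median *nr4A* level, r was 0.32, 0.29, 0.48 and -0.09. No relation was thus detected inside a group when the weeks were pooled.

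Taking each library's deviation from the mean of its RNAi group and week gave another picture in 2 of the 4 groups. In *nr4A(RNAi)* heads r was -0.91 and rho -0.85: within a week, the heads with less *nr4A* had more *qki*. At week 5, for example, the library with the highest *nr4A* (16.6 CPM) had the lowest *qki* (1.99 CPM). The exact two-sided test over the 1296 relabellings within weeks gave p = 0.0216 (adjusted p = 0.0432). With the 4 heads that stand apart left out, 7 libraries remained in weeks with at least 2, and r was 0.04 (exact p = 0.958). In control tails r was 0.68 and rho 0.77, of the opposite sign (exact p = 0.0162, adjusted p = 0.0432), and without the control tail that stands apart it was 0.70 (exact p = 0.0208). In control heads and *nr4A(RNAi)* tails r was 0.04 and -0.20 (exact p = 0.88 and 0.589). Relative to the contractile protein counts, none of the 4 passed after adjustment, with r of -0.66, -0.75, 0.62 and -0.05 in control heads, *nr4A(RNAi)* heads, control tails and *nr4A(RNAi)* tails (exact p = 0.0424, 0.0926, 0.0802 and 0.894). The relation in *nr4A(RNAi)* heads was thus not seen without the libraries that stand apart. In control tails r was 0.68 and, without the library that stands apart, 0.70. Values relative to the contractile protein counts divide both genes by the same sum, which by itself can raise r. The 0.62 in control tails (exact p = 0.0802) therefore cannot show that the relation is stable.

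**Figure D4:**
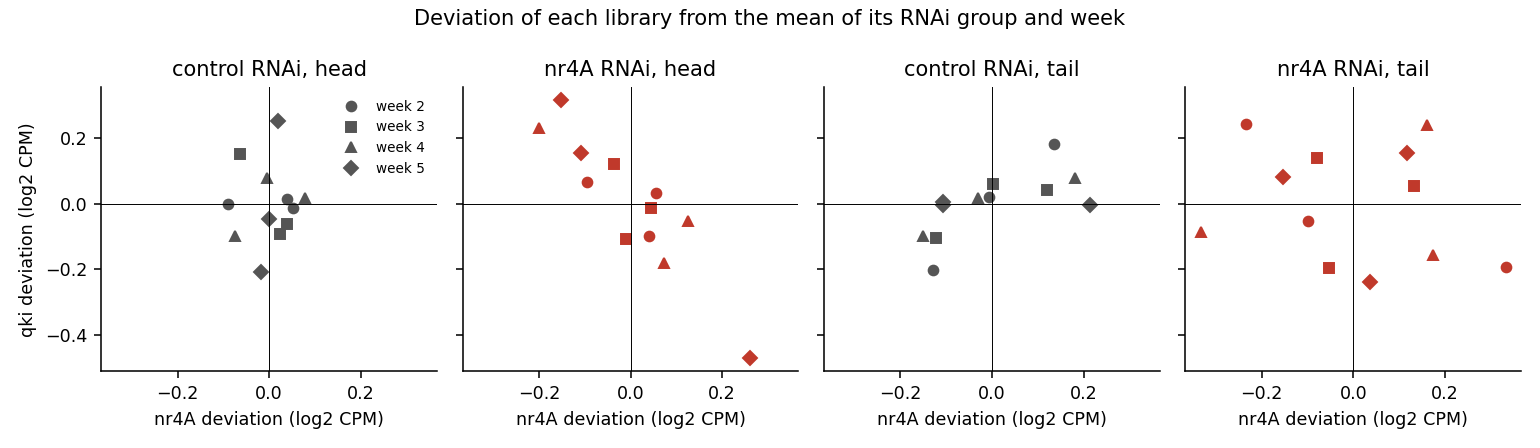
Deviation of *qki* against deviation of *nr4A* in log2 CPM, each library from the mean of its RNAi group and week, in 4 panels of 12 libraries; symbols give the week. The points of *nr4A(RNAi)* heads run from upper left to lower right (r = -0.91), those of control tails from lower left to upper right (r = 0.68), and the other panels show no slope.

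The tail table keeps rows apart that the head table merges, and these gave a further view of both genes, added after the data were seen. *qki* has 3 rows and *nr4A* 2 rows in tails, each with the same contig ID, and the table does not say which transcript form a row holds. All 3 rows of *qki* fell, by -2.47 (SE 0.10), -2.34 (SE 0.13) and -2.56 (SE 0.12) on the log2 scale, with adjusted p of at most 1.81e-10 in edgeR over all rows, where 1.35% of rows were called lower. Row 1 of *nr4A*, which held 85.2% to 93.6% of its counts in control tails, fell by 0.65 (SE 0.07, adjusted p = 4.59e-06). Row 2 of *nr4A* had a mean of 2.02 CPM in control tails and 2.07 CPM in *nr4A(RNAi)* tails, and its log2 fold change was 0.04 (SE 0.15, adjusted p = 0.999, interval -0.25 to 0.33). Its counts ran from 26 to 61 (median 45.0) in control tails and from 20 to 66 (median 39.5) in *nr4A(RNAi)* tails, and the 2 ranges overlap.

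The difference between the rows was tested within libraries. Row 2 made up 6.36% to 14.8% of *nr4A* counts in control tails (median 9.07%) and 9.30% to 20.4% in *nr4A(RNAi)* tails (median 14.2%). The log2 ratio of row 2 to row 1 rose by 0.67 (SE 0.14), at all 4 weeks, with p = 0.000487 in the exact two-sided permutation test (adjusted p = 0.00146 over 3 row ratios). The share did not separate the groups in weeks 2 and 3, as control tails of week 3 had 9.48% to 14.8% against 11.1% to 13.8%. For *qki*, row 2 to row 1 differed by 0.10 (SE 0.22, exact p = 0.676) and row 3 to row 1 by -0.08 (SE 0.11, exact p = 0.506), no difference beyond the spread. The summed *nr4A* value in tails thus joins 2 rows that changed unequally.

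**Figure D5:**
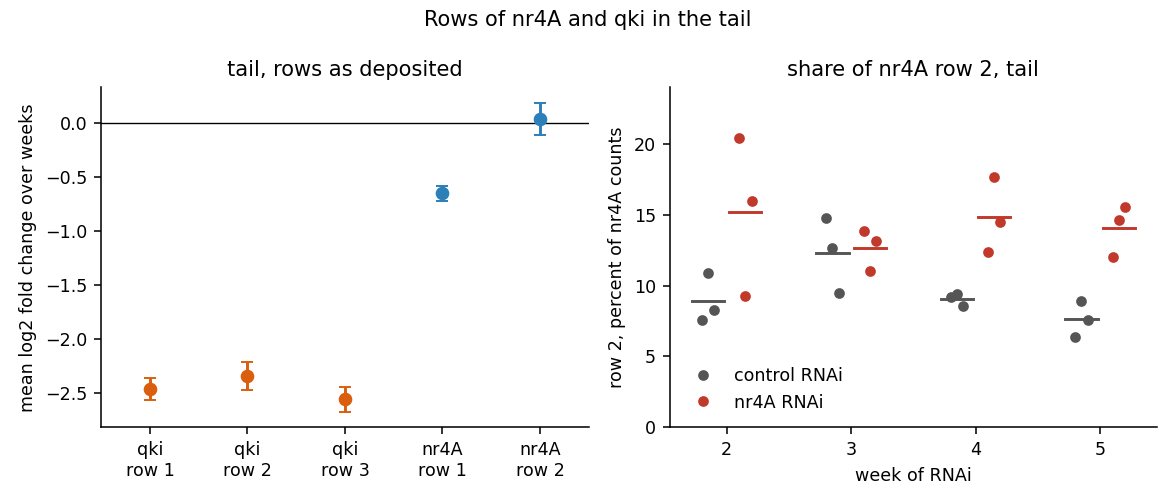
Left, mean log2 fold change over weeks of the rows of *qki* (orange) and *nr4A* (blue) in tails, with bars of 1 SE; right, percentage of *nr4A* counts on row 2 in each tail library by week, with group means as bars. The 3 *qki* rows lie between -2.56 and -2.34, *nr4A* row 1 at -0.65 and *nr4A* row 2 at 0.04.

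The contigs whose level followed each gene most closely over the 24 libraries of a tissue were taken by the mean of the head and tail Pearson correlation of log2 CPM, among 15702 other contigs with a mean of at least 1 CPM in both tissues. All of these correlations run across both RNAi groups, so contigs that RNAi lowered come out on top, and they are a description with no test. For *qki* the first were dd_Smed_v4_2972 (r = 0.98), dd_Smed_v4_23846 (0.95), dd_Smed_v4_9565, named *col21a1* after a collagen (0.94), dd_Smed_v4_11683, named *ca12* after a carbonic anhydrase (0.94), and dd_Smed_v4_8317 (0.93). For *nr4A* they were dd_Smed_v4_5509 (r = 0.93), dd_Smed_v4_16103 (0.92), dd_Smed_v4_6723 (0.92), dd_Smed_v4_3902, named *mmp19* after a matrix metalloproteinase (0.90), and dd_Smed_v4_9677, named *pcdh11y* after a protocadherin (0.89). The median over all these contigs was 0.01 for *qki* and -0.08 for *nr4A*. The 2 genes had r = 0.82 with each other, which placed *qki* number 22 in the order for *nr4A* and *nr4A* number 36 in the order for *qki*. By Spearman correlation, 2 of the 5 contigs named for *qki* and 3 of the 5 for *nr4A* were among the first 5.

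The changes of these 10 contigs ran from -2.19 to -0.34 in heads and from -2.01 to -0.18 in tails on the log2 scale, and 3 are given here. *col21a1* went from a mean of 94.5 to 31.8 CPM in heads and from 86.4 to 23.3 CPM in tails, log2 fold changes of -1.73 (SE 0.10) and -1.998 (SE 0.10). dd_Smed_v4_16103 went from 5.89 to 1.54 CPM in heads and from 4.27 to 1.06 CPM in tails (-1.97, SE 0.15, and -2.01, SE 0.12). By contrast dd_Smed_v4_6723 went from 86.2 to 68.1 CPM in heads and from 72.8 to 64.1 CPM in tails (-0.34, SE 0.04, and -0.18, SE 0.04), a tail call kept in 8 of 12 alternatives. Each of the 10 passed in both tissues, at an adjusted p of at most 0.0194 (edgeR). They had been selected on the same libraries, so nothing is read from that.

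Lists of contigs that carry a name in the study put both genes in context, by their counts and medians alone. Of 9 other contigs that the authors cloned as lowered in both tissues, which they chose on these libraries, 9 were lower in heads and 9 in tails, with medians of -0.68 and -0.999 against -0.01 and 0.00 over all contigs. Their first by size were *col21a1*, *mmp19* (-1.32, SE 0.07, and -1.14, SE 0.07) and dd_Smed_v4_2972 (-1.06, SE 0.06, and -1.17, SE 0.06). Of 17 other contigs named as RNA-binding proteins, 2 were lower and 0 higher in heads, and 0 passed in tails, with medians of 0.02 and -0.01. Over all contigs 5.22% were lower and 7.83% higher in heads, and 1.87% and 1.21% in tails. Over the 12 alternatives the head counts ran from 0 to 5 lower and from 0 to 4 higher, with 0 lower when any control replicate was left out and 4 higher without *nr4A(RNAi)* replicate 3. The 2 in heads, named here after their values were seen, were the splicing factor *SF3B1* (-0.16, SE 0.05) and *IGF2BP2* (-0.14, SE 0.05). No listed RNA-binding protein came near the change of *qki*, since their values ran from -0.16 to 0.21 in heads and from -0.09 to 0.19 in tails.

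Markers of muscle were lower in the *nr4A(RNAi)* heads. In tails the collagen median was less negative than in heads, and the contractile protein median lay near that of all contigs (0.00). Of 10 contractile protein contigs, 4 were lower in heads and 1 in tails, with medians of -0.19 and -0.02, beside 5.22% and 1.87% of all contigs. Over the 12 alternatives the head count ran from 3 to 8, with 7 under DESeq2 size factors and 8 without the libraries that stand apart. The tail count ran from 1 to 2. The 1 that passed in both tissues was a myosin heavy chain contig, dd_Smed_v4_432 (-0.59, SE 0.05, in heads and -0.25, SE 0.04, in tails). Their summed level was 10563 to 13687 CPM in control heads and 8288 to 10504 CPM in *nr4A(RNAi)* heads, and 10120 to 13671 against 9941 to 11624 CPM in tails. Of 12 collagen contigs, 10 were lower in heads and 5 in tails (again beside 5.22% and 1.87% of all contigs), with medians of -0.43 and -0.18, and 3 were named by size, dd_Smed_v4_701 (-0.59 in heads, -0.31 in tails), dd_Smed_v4_832 (-0.52, -0.26) and dd_Smed_v4_840 (-0.51, -0.25). In tails the collagen count ranged from 0 to 5 over the alternatives, with 0 when control replicate 1 or 2 was left out.

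Neural and ciliary contigs served as markers of other cell types. Of 12 neural contigs, 4 were higher in heads and 2 in tails and 0 lower in either, with medians of 0.08 and 0.05, among them *SYT11*, a synaptotagmin (0.30 in heads, 0.17 in tails), and *NLGN4Y*, a neuroligin (0.13 in both). Their tail calls were kept in 5 and 3 of 12 alternatives. Of all contigs, 7.83% were higher in heads and 1.21% in tails. The number of neural contigs that were higher ran from 2 (without control replicate 3) to 7 (without *nr4A(RNAi)* replicate 3) in heads. In tails it ran from 0 to 2 and was 0 when any control replicate was left out. It stayed above 0 in 1 of the 6 runs that left out 1 replicate and in 5 of 12 alternatives. The summed neural level was 1418 to 1582 CPM in control heads and 1540 to 1690 in *nr4A(RNAi)* heads, and 776 to 877 against 744 to 894 in tails. Of 7 ciliary contigs, 1 was lower and 1 higher in heads and 0 of the 6 tested passed in tails, beside 5.22% lower and 7.83% higher of all contigs in heads. The head count of lower ciliary contigs ran from 0 (without any 1 control replicate or *nr4A(RNAi)* replicate 2) to 2 (without *nr4A(RNAi)* replicate 3). The ciliary contigs had summed levels of 1591 to 1797 against 1073 to 1907 CPM in heads and 790 to 1110 against 585 to 1093 CPM in tails. In size, *qki* went beyond every contig of the muscle lists in both tissues, the most negative of which were -1.03 in heads and -0.36 in tails. Those lists leave out *col21a1*, which the paper gives as an example of genes with known muscle expression. It changed by -1.73 in heads and by -1.998 in tails. The part of cell type shares in the changes of *nr4A* and *qki* was not tested.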

How the data were processed

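RNA from heads and tails was sequenced after polyA selection (TruSeq) on an Illumina instrument. The authors processed the reads with CASAVA 1.7.0, Trimmomatic 0.32 and bowtie, mapped them to the dd_Smed_v4 transcriptome and deposited raw counts of reads per contig for 48 libraries. Their DESeq comparison tables, which hold group means, fold changes and p-values, were not used. The head table also has 4 rows that are no contig (12.4% to 18.8% of counts), left out here. No genome or contig sequence was used.

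Counts were summed per contig number, normalized by TMM, filtered with filterByExpr (minimum count 10, minimum total 15) and tested by the quasi-likelihood F test of edgeR 4.0.16 in R 4.3.3, with Benjamini-Hochberg adjustment over all contigs and a threshold of 0.05. The weekly tests were 8 fits of 6 libraries; means over weeks and differences between weeks used one model per tissue (24 libraries, 8 group means), and head minus tail one model of 48 libraries with 16 group means. CPM are TMM-scaled; log2 CPM used a prior count of 0.5 and count ratios 0.5 added. Intervals of a log2 fold change are the estimate ± 1.96 SE. Permutation tests were two-sided, with 100000 resamples for correlations (scipy 1.17.1, numpy 2.4.6). Pools are the replicates. The edgeR tests set a difference against the spread between pools, with information on that spread shared over contigs. Permutation tests reshuffled the labels of the pools or the pairing of their values. The target appears as nr4A1 in head column names and as nr4A in tail column names, and both were read as *nr4A*.

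The named contigs were both genes, the 5 contigs most like each, and up to 3 per list that passed in both tissues with the largest mean change. The genes, lists and tests were chosen with earlier results of these data known. Alternatives were DESeq2 1.42.0 (size factors or Wald test), other filters, weekly tests within the 24-library model, a replicate block, and libraries left out.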

Additional observations from a re-analysis of the deposited data

Results flagged for a closer look

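The change of *qki* differed between tissues by a test of the difference itself: the mean log2 fold change over weeks was 0.66 less negative in heads (-1.79) than in tails (-2.46), with an adjusted p of 0.000338 in edgeR. The change of *qki* in tails also differed between time points, by -1.70 on the log2 scale from week 2 to week 5 (adjusted p = 0.00116 in edgeR). The library labels of heads and tails begin with different codes of unstated meaning, which coincide with the tissue. Groups of 3 libraries were not searched for single distant values.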

How the results depend on the processing

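Of 427 alternative values for the main comparisons of *nr4A* and *qki*, 386 kept their direction and, where a p-value was given, their side of the threshold. This was the adjusted p for fold changes and the unadjusted permutation p for correlations, count ratios and row ratios. Among the 386 were every value of the mean changes over weeks of both summed genes, the *qki* head minus tail difference, the *qki* tail changes of weeks 3 to 5 and the *qki* to *nr4A* count ratios. Fold changes without an adjusted p were counted by direction alone. Such values occurred for *qki* in heads at week 3 and for its growth in tails. Values below are log2 fold changes, and the cause was not tested where none is given. With the DESeq2 Wald test, these also passed: *nr4A* in heads at weeks 2 (-0.51), 4 (-0.69) and 5 (-0.93), *qki* in heads at weeks 2 (-1.14) and 5 (-2.04) and in tails at week 2 (-1.44), and the *qki* head growth from week 2 to week 5 (-0.90). With the 24 libraries of each tissue modelled together, *qki* passed in heads at weeks 2 (-1.14) and 5 (-2.02) and in tails at week 2 (-1.42), and *nr4A* in heads at weeks 4 (-0.68) and 5 (-0.92). With a filter at a mean of 100 counts, the *qki* head growth passed (-0.92), and *nr4A* turned sign near 0 between weeks 5 and 2 in control heads (-0.0069) and in *nr4A(RNAi)* tails (0.023). Without the libraries that stand apart, growth in heads passed for *qki* (-0.72) and *nr4A* (-0.57), *nr4A* growth in tails turned to -0.069, and the correlation in *nr4A(RNAi)* tails turned to 0.092. As deviations within weeks, the correlation was -0.91 in *nr4A(RNAi)* heads and 0.68 in control tails.

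Leaving out 1 replicate at a time, heads ranged as follows: at week 2, *nr4A* from -0.56 to -0.46 and *qki* from -1.17 to -1.09; at week 4, *nr4A* from -0.75 to -0.59 and *qki* from -2.37 to -2.17; at week 5, *nr4A* from -1.08 to -0.82 and *qki* from -2.16 to -1.83. Growth in heads ranged from -0.53 to -0.31 for *nr4A* and from -1.03 to -0.73 for *qki*. In tails, *qki* at week 2 ranged from -1.55 to -1.33, *nr4A* at week 3 from -0.56 to -0.42, and *nr4A* growth from -0.069 to 0.23. The week 5 minus week 2 change of *nr4A* ranged from -0.046 to 0.048 in control heads, from -0.24 to 0.062 in control tails and from -0.082 to 0.13 in *nr4A(RNAi)* tails. *nr4A* row 2 in tails ranged from -0.084 to 0.14, and the *qki* row 3 to row 1 ratio from -0.13 to 0.019. Correlations ranged from -0.030 to 0.43 in control heads and from -0.48 to 0.010 in *nr4A(RNAi)* tails.

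The replicate block ended the *qki* call in heads at week 4 (-2.25, adjusted p = 0.15, edgeR) and no other call of these genes. Nothing beyond the replicate number is stated to link same-numbered libraries. Deviations of same-numbered control and *nr4A(RNAi)* libraries correlated above 0.1 in 5 of 12 head pairs and 8 of 12 tail pairs. Of these 12, 6 in heads and 8 in tails correlated best with their own number. Between heads and tails, 8 of 12 control pairs and 3 of 12 *nr4A(RNAi)* pairs did so. Whether the numbers mark a shared origin was not tested, and the main tests treat the libraries as unpaired. The block cannot be fitted to changes within 1 RNAi group. Over all alternatives, the count of contigs called in the mean over weeks ran from 974 to 9852 in heads (main 2560; highest without *nr4A(RNAi)* replicate 3) and from 304 to 1974 in tails (main 604; highest without *nr4A(RNAi)* replicate 1). In weekly tests it ran from 0 to 11191 in heads at week 5 (main 2), from 0 to 610 at week 4 (main 9), from 48 to 1033 at week 3 (main 964) and from 0 to 64 at week 2 (main 0), and in tails from 334 to 2655 at week 5 (main 1815), from 18 to 183 at week 4 (main 76), from 2 to 153 at week 3 (main 26) and from 0 to 66 at week 2 (main 0). In *nr4A(RNAi)* tails the counting error of *qki* was 21.8% at its lowest count and 9.76% at its highest.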

Other observations

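Among 25 other contigs named as transcription factors, *nkx1-1* (dd_Smed_v4_19327), a homeobox gene needed for circular muscle fibers in planarians, was the one past the threshold in both tissues. It changed by -0.53 (SE 0.11, adjusted p = 0.00254) in heads and by -0.43 (SE 0.11, adjusted p = 0.029) in tails in edgeR, and the tail call was kept in 5 of 11 alternatives. It went from a mean of 3.56 to 2.51 CPM in heads and from 3.52 to 2.64 CPM in tails. In heads 3 of the 25 were lower and 5 higher, and in tails 2 of 23 tested were lower and 0 higher, with list medians of 0.06 and -0.03 against -0.01 and 0.00 over all contigs. Of all contigs, 5.22% were lower and 7.83% higher in heads, and 1.87% and 1.21% in tails. The head counts of this list ran from 1 to 6 lower and from 2 to 8 higher when 1 replicate was left out, both highest without *nr4A(RNAi)* replicate 3, and the tail count from 1 to 2 lower. The 5 that were higher in heads, named here after their values were seen, were a *snail*-like contig (0.40, SE 0.07), a contig named after musculin (1.04, SE 0.21), *IRX6* (0.30, SE 0.08), *NKX2-4* (0.27, SE 0.08) and *prep* (0.09, SE 0.02). Besides *nkx1-1*, those lower were *ZFHX3* (-0.37, SE 0.11) and *ZicA* (-0.22, SE 0.05) in heads and *IRX2* (-0.35, SE 0.05) in tails, named in the same way. The musculin contig had means of 0.455 CPM in control heads and 0.948 CPM in *nr4A(RNAi)* heads, a low level.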
